A study of Danio rerio with 6 samples.

Results

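Deletion-insertion scars are the scars in which the sequenced stretch of the GFP transgene was read as having lost bases at one place and gained bases at another. What part of them are products of repair was not tested. They were selected on their alignment string alone: a scar belonged here when its string held exactly 1 deletion and exactly 1 insertion and it reached 10 reads in at least 1 library, so the event counts and the read minimum chose the members and are not results. Of 4273 scars that met the same read minimum in at least 1 of 6 zebrafish, 345 were deletion-insertion scars (8.07%), and because some were kept in more than 1 fish they made 403 entries of a scar in a fish. The other 3928 kept scars included 1523 with 2 deletions and no insertion, the class closest in form.

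The data came from a lineage tracing experiment in which a fertilised zebrafish egg that carried several tandem copies of a histone H2A-GFP transgene was injected with a guide RNA against GFP and a source of Cas9, so that cells of the early embryo acquired scars and passed them on. Fish R1, R2 and R3 received Cas9 RNA, and fish P1, P2 and P3 received Cas9 protein. All 6 animals were of the same transgenic line and about 1 year old when their body structures were taken, and no uninjected fish was analysed here, so that no background level of deletion-insertion strings without Cas9 can be given. Each barcode of a fish marked 1 bulk DNA library of a body structure or a part of one, and libraries are named below by barcode number only, without their structure. The paper summed technical replicates of the same structure. That was not done here, so a number of libraries is not a number of separate structures.

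The files held 130 libraries of at least 1000 reads, 58 from Cas9 RNA fish and 72 from Cas9 protein fish, with 2802 to 3198706 reads each and 1842 to 2187091 of them scarred. No 2 libraries held identical counts. Libraries of 1 fish came from 1 injected egg and share their scars, so every test below compares fish, and a spread over libraries describes that fish alone. A library in which a scar had 0 reads still allowed a share of up to 3 reads, between 0.000137% and 0.163% of its scarred reads (median 0.00165%), and since amplified reads are not independent molecules, this limit and the 95% Wilson intervals below cover counting error only.

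Cas9 cuts both strands of the DNA at the site matched by the guide RNA, and in the early embryo most breaks are rejoined without a template. End joining of this kind leaves small deletions, small insertions or both, and once the matching bases are altered the site is usually no longer cut. A scar made in an early cell is then copied to all of its descendants, which is what lets scars be read as lineage marks, whereas a scar made by a common repair route can arise independently in many cells.

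The alignment string gives lengths and positions along the 720-base reference, read from its first base: M counts aligned bases, D deleted bases and I inserted bases. It records no base letters, so the identity of the inserted bases stays unknown. In this notation the deletion-insertion scar with the highest mean share in each fish is shown first. These scars held 74.8%, 15.3% and 47.2% of the deletion-insertion reads of R1, R2 and R3. In P1, P2 and P3 they held 26.6%, 49.7% and 80.5%.
Leading scar of fish R1: 533M5D8M1I174M
Leading scar of fish R2: 534M11D19M1I156M
Leading scar of fish R3: 535M1D8M1I176M
Leading scar of fish P1: 526M1I15M6D173M
Leading scar of fish P2: 529M6D12M1I173M
Leading scar of fish P3: 525M2D14M3I179M

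The 5 scars kept in the most fish are shown next, since they are the strings found again in separate animals. Of 13 scars kept in 3 fish, the 3 shown have the highest mean shares.
Kept in 5 fish, insertion first: 545M1I30M1D144M
Kept in 5 fish, deletion first: 541M6D34M1I139M
Kept in 3 fish, insertion first: 545M1I28M1D146M
Kept in 3 fish, deletion first, 2-base insertion: 540M1D4M2I175M
Kept in 3 fish, deletion first, 1-base insertion: 536M5D4M1I175M

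The extremes of the class in length and distance follow, each of them seen in 1 fish.
Longest deletion, fish P2: 533M1I3M25D159M
Longest insertion, fish R1: 541M3D15M10I161M
Largest distance, fish P1: 526M1D54M1I139M

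Read from the 5′ end of the reference, the deletion came first in 197 of the 345 scars and the insertion came first in 148 (42.9%). As the aligner wrote them, the events never touched: no deletion lay directly against an insertion in any of these strings. Whether the aligner can write touching events was not tested. The lack of touching events and of shorter distances is therefore not given as a property of the scars. The distance, counted as aligned bases between the events, ran from 2 to 54 with a median of 13 and quartiles of 8 and 22. The median distance was 13 in both orders. In 54 scars the events lay at most 5 bases apart, in 199 they lay 6 to 20 bases apart and in 92 they lay farther apart than 20 bases, and the shortest distance of 2 bases was found in 7 scars. Within a fish the median distance was 11, 11 and 14 bases in R1, R2 and R3 and 14.5, 13 and 17 bases in P1, P2 and P3. Scars with events 6 to 20 bases apart carried 92.9%, 73.7% and 60.2% of the deletion-insertion reads of R1, R2 and R3, and 67.6%, 69.6% and 93.8% of those of P1, P2 and P3, so this middle range of distances held most of the reads of every fish.

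Deletions spanned 1 to 25 bases with a median of 2. A single base was lost in 155 scars (44.9%), 2 to 6 bases in 140 and more than 6 bases in 50. The longest deletion, positions 537 to 561, stood behind a 1-base insertion after position 533 and was found in fish P2, where all 123 of its reads came from library 16 (0.0120% of its scarred reads, Wilson interval 0.0101% to 0.0144%). Insertions were shorter, from 1 to 10 bases with a median of 1: 220 scars gained a single base (63.8%), 56 gained 2 bases and 69 gained 3 or more. The 10-base insertion lay after position 559 beyond a 3-base deletion of positions 542 to 544 in fish R1, and reached 0.0972% of the scarred reads of library 1 (Wilson interval 0.0869% to 0.109%). A 1-base deletion paired with a 1-base insertion made up 64 scars, 37 with the deletion first and 27 with the insertion first.

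The same pair of lengths in opposite orders could differ widely in reads. A 5-base deletion with a 1-base insertion was found as 15 scars with the deletion first, which had 153077 reads over all fish, and as 2 scars with the insertion first, which had 1275 reads. The first set was dominated by the leading scar of R1 with 149400 reads. The second set was dominated by 537M1I4M5D174M in R3, an insertion after position 537 followed by a deletion of positions 542 to 546, with 1254 reads. This pair of lengths was picked for having the most reads. A 3-base deletion with a 1-base insertion had 6202 reads with the deletion first and 11971 with the insertion first. For a 6-base deletion with a 1-base insertion these were 20894 and 15629 reads.

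The deletion and the insertion offset each other in length in part of the class. The net length change ran from a loss of 24 bases to a gain of 7 with a median of 0, and 167 scars lost bases, 79 left the length unchanged and 99 gained bases. Of the 79 scars of unchanged length, 64 were the pairs of 1 base. A net change divisible by 3, which keeps the reading frame downstream of both events, was found in 124 of 345 scars (35.9%): the 79 of unchanged length and 45 of the 266 others (16.9%). Counted once per scar, in-frame strings made up 37.6% of the scars with 2 deletions and 34.7% of all other kept scars, where unchanged length occurred in 0 and 5 scars. The net change of every scar is given by the lengths in its string, and a string of unchanged length can be read as a run of substitutions instead, since an aligner chooses between such readings by its penalties.

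Deletions of the class lay between positions 518 and 580 and insertions after positions 516 to 581, with a median deletion start at 537 and a median insertion after 544. The single position deleted in the most reads of a fish, a proxy for the cut site taken from all its scars, was 542, 543 and 542 in R1, R2 and R3 and 542, 544 and 545 in P1, P2 and P3. At least 1 event lay within 5 bases of that position in 100 of 112, 23 of 23 and 32 of 36 deletion-insertion scars of the Cas9 RNA fish and in 83 of 102, 72 of 79 and 48 of 51 of those of the Cas9 protein fish. Both events lay within 5 bases of it in 17, 2 and 10 scars of R1, R2 and R3 and in 11, 9 and 1 scars of P1, P2 and P3. Thus most strings combined an event within 5 bases of the commonly deleted position with a second event farther from it. The deletion itself covered that position in 26, 7 and 6 scars of R1, R2 and R3. In P1, P2 and P3 it did so in 35, 13 and 12 scars.

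Some events recurred in many strings. A 1-base insertion after position 545 took part in 28 of the 345 scars, a 1-base insertion after position 581 in 21, a deletion of position 576 alone in 18, a 1-base insertion after position 546 in 16, and a 2-base insertion after position 545 and a deletion of position 574 in 14 each. The insertions after positions 545 and 546 lie close to the commonly deleted bases, and the other events lie downstream. At or beyond position 560, 91 of the 345 scars (26.4%) had an event. In 89 of these the downstream event was 1 base long.

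Numbers and shares varied between fish. R1 held 112 deletion-insertion scars of 1650 kept scars (6.79%), R2 23 of 497 (4.63%) and R3 36 of 594 (6.06%). P1 held 102 of 1620 (6.30%), P2 79 of 780 (10.1%) and P3 51 of 974 (5.24%). The members of each fish are those that passed the read minimum: with no minimum, 1529, 575 and 740 such strings were present in R1, R2 and R3 and 1838, 1271 and 851 in P1, P2 and P3, and the strings left out held 0.0326% to 0.0977% of the scarred reads of their fish. Of all reads of such strings, those left out made up 2.08%, 24.4% and 13.1% in R1, R2 and R3 and 9.49%, 9.88% and 5.97% in P1, P2 and P3, so the minimum removed most from R2. The best library stood at exactly 10 reads, just inside the minimum, for 8, 0 and 3 scars of the Cas9 RNA fish and 9, 4 and 3 of the Cas9 protein fish, and at 9 reads, just outside it, for 14, 2 and 4 and for 15, 3 and 4.

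In fish R1 deletion-insertion scars took a mean of 2.32% ± 2.02 of the scarred reads per library (SD over 31 libraries), with 0.580% in the lowest library, a median of 1.74% and 11.1% in the highest. In R2 they took 0.435% ± 0.427 (13 libraries, 0.0497%, 0.299% and 1.49%) and in R3 0.664% ± 1.33 (14 libraries, 0.0434%, 0.187% and 5.15%). In P1 they took 0.379% ± 0.739 (26 libraries, 0.0395%, 0.0975% and 2.95%), in P2 0.421% ± 0.694 (23 libraries, 0.0823%, 0.197% and 3.42%) and in P3 0.683% ± 1.19 (23 libraries, 0.0601%, 0.143% and 5.02%). The lowest library of R1 thus lay above the median library of each of the other 5 fish, although all 6 ranges overlapped.

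In 5 of 6 fish the highest library owed most of its share to 1 scar. Library 2 of R3 stood at 5.15% (Wilson interval 4.95% to 5.36%), of which 1 scar made 5.01% and all others 0.137%, and without this library the mean of R3 was 0.319%. Library 22 of P3 stood at 5.02% (4.94% to 5.09%) with 4.88% from 1 scar and 0.135% from the others. Library 1 of P2 had 3.14% from 1 scar and 0.281% from the others, and library 20 of P1 had 2.88% and 0.0711%. In library 21 of R1, 6.02% came from 1 scar and 5.04% from the others, and in library 5 of R2, 0.733% and 0.753%, so that R2 was the fish whose highest library had no majority scar. With the leading scar of each fish left out, the mean share over libraries was 1.01%, 0.296% and 0.240% in R1, R2 and R3 and 0.258%, 0.275% and 0.161% in P1, P2 and P3.

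The leading scar of R1 lost positions 534 to 538 and gained 1 base after position 546, a net loss of 4 bases over a distance of 8. It was read in all 31 libraries of R1, at 0.383% in the lowest, 1.04% in the median and 5.72% in the highest, library 4 (Wilson interval 5.64% to 5.80%), and its mean share was 1.31%. It reached 1% in 17 libraries. Its 149400 reads were 74.8% of the deletion-insertion reads of R1, and no library of any other fish held a read of it. Its deletion without the insertion had 173 reads in R1 and its insertion without the deletion had 530, so that the combined scar outnumbered both single events.

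The leading scar of P3 lost positions 526 and 527 and gained 3 bases after position 541. It too was read in every library of its fish, all 23, but unevenly: the lowest had 0.0174%, the median 0.0372% and the highest 4.88%, and the 3 libraries at or above 1% stood at 4.88%, 2.94% and 1.12%. Its mean was 0.522%, it made up 80.5% of the deletion-insertion reads of P3, and it had no read in another fish. Its net change was a gain of 1 base.

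The leading scars of R3, P1 and P2 each had their highest share in 1 library. In R3, loss of position 536 with a gain of 1 base after position 544 gave no net change, and its share was 0.00675% in the lowest library, 0.0121% in the median and 5.01% in library 2 (Wilson interval 4.81% to 5.22%), the next, library 14, standing at 0.766%. By reads these libraries were alike, with 2264 in library 2 and 2385 in library 14 of 4854 in all. In P1, a gain of 1 base after position 526 preceded the loss of positions 542 to 547, and the share was 0.00559% in the median library, 2.88% in library 20 (2.83% to 2.93%) and 0.111% in the next. In P2, loss of positions 530 to 535 with a gain of 1 base after position 547 had 0.00461% in the lowest library, 0.00920% in the median, 3.14% in library 1 (3.09% to 3.19%) and 0.0232% in the next. The 6-base deletion of the P1 scar was also a common scar on its own, with 3105064 reads in that fish.

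The leading scar of R2, with loss of positions 535 to 545 and a gain of 1 base after position 564, was spread over several libraries at low shares. Its 4 highest libraries stood at 0.733%, 0.490%, 0.436% and 0.145%, the median library had 0.00127%, and its mean was 0.139%. It reached 10 reads in 4 of 13 libraries and made up 15.3% of the deletion-insertion reads of R2, against 26.6% to 80.5% for the leading scars of the other fish. By reads another scar came first in R2, which it did in no other fish: 531M8D6M1I175M, with loss of positions 532 to 539 and a gain of 1 base after position 545, had 1172 reads (31.6%), with 0.451% in its highest library, 0.00423% in the median and a mean of 0.0802%. The deletion-insertion scar that reached 10 reads in the most libraries of R2, 7 of 13, was 542M3I33M1D144M, at a mean of 0.0262% and a highest value of 0.0808%.

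Of the 345 scars, 11 reached 1% of the scarred reads of at least 1 library: 5 leading scars, all but that of R2, and 6 others whose highest values lay between 1.10% and 6.02%. The highest of these was 533M1D7M1I179M in R1, loss of position 534 with a gain of 1 base after position 541, at 6.02% in library 21 and 0.00407% in the median library. The other 5 were 539M1I2M2D177M (2.53%), 535M1D2M4I182M (1.52%) and 536M1D9M1I174M (1.13%) in R1, 528M2I10M9D173M (1.76%) in P1 and 528M1I14M2D176M (1.10%) in P3. All 11 were kept in 1 fish only, 8 had a 1-base insertion, 4 were in frame, and their events lay 2 to 15 bases apart. In the whole class 88.7% of scars were kept in 1 fish, 63.8% had a 1-base insertion and 35.9% were in frame. Some of the 11 had reads under the minimum in other fish, 535M1D8M1I176M and 536M1D9M1I174M among them.

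Many of the scars reached 10 reads in few libraries of their fish. At 10 reads or more, 58 of 112, 16 of 23 and 18 of 36 scars of R1, R2 and R3 were found in a single library, and 70 of 102, 31 of 79 and 28 of 51 of those of P1, P2 and P3. Most of these had some reads elsewhere in the fish: 3, 7 and 2 of them in R1, R2 and R3 and 5, 4 and 2 in P1, P2 and P3 had no read in another library. Only 2 entries reached 10 reads in all libraries of their fish, 1 in R1 and 1 in P3. The median number of deletion-insertion scars at 10 reads per library was 9, 4 and 5.5 in R1, R2 and R3 and 7, 8 and 5 in P1, P2 and P3, the richest library held 44, and 5 of the 130 libraries held none. Because the minimum is a fixed number of reads, this number moved with the reads of a library: Spearman's rho over the libraries of a fish was 0.886, 0.863 and 0.914 in R1, R2 and R3 and 0.906, 0.886 and 0.738 in P1, P2 and P3. The share of scarred reads moved little with them, with rho from -0.253 to 0.0379.

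Sharing between fish was the exception, but not in this class alone. Of scars with 2 deletions 16.7% were kept in more than 1 fish, and of all other kept scars 19.8%. Of the 345 scars, 306 were kept in 1 fish (88.7%), 24 in 2 fish, 13 in 3, 0 in 4, 2 in 5 and 0 in all 6, and 137 of them had not a single read in another fish. The 39 shared scars comprised 27 kept in fish of both injections, 1 kept only in Cas9 RNA fish and 11 kept only in Cas9 protein fish. The pools were unequal: 164 of the 345 scars were kept in R1, R2 or R3 and 208 in P1, P2 or P3. For the other classes, neither this split nor the number of scars without a read in another fish was counted. Whether these counts set deletion-insertion scars apart was not tested. No shared scar exceeded 0.632% of the scarred reads of any library. Shared scars were 24 of 112, 2 of 23 and 9 of 36 scars of R1, R2 and R3 and 25 of 102, 20 of 79 and 17 of 51 of P1, P2 and P3. They carried 1.23%, 1.59% and 22.3% of the deletion-insertion reads of R1, R2 and R3 and 27.6%, 22.1% and 2.68% of those of P1, P2 and P3.

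The 2 scars kept in 5 fish both joined an event near position 545 to a 1-base event far downstream. A gain of 1 base after position 545 with loss of position 576 had mean shares of 0.00226% and 0.000877% in R1 and R3 and of 0.00517%, 0.0189% and 0.00106% in P1, P2 and P3, and it reached 10 reads in 20 of 23 libraries of P2 and in 1 of 14 libraries of R3. Loss of positions 542 to 547 with a gain of 1 base after position 581 had mean shares of 0.00201% and 0.00253% in R1 and R3 and of 0.00292%, 0.00110% and 0.00182% in P1, P2 and P3, with a further 19 reads in R2 that did not reach the minimum. This scar reached 10 reads in 6 of 31 and 2 of 14 libraries of R1 and R3. In P1, P2 and P3 it did so in 14 of 26, 1 of 23 and 2 of 23 libraries. Its mean shares thus lay between 0.00110% and 0.00292% in the 5 fish, far below those of the leading scars.

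These scars can be set beside their single events. Per 100 reads of the 6-base deletion alone, the scar with the added base after position 581 had 0.0138, 0.0187 and 0.0134 reads in R1, R2 and R3 and 0.0159, 0.0127 and 0.0145 in P1, P2 and P3. Per 100 unscarred reads of the same fish, the added base after position 581 alone had between 0.0136 and 0.0150 reads. In every fish the added base was thus about as frequent on the deleted as on the intact transgene, R2 with its 19 reads lying farthest apart. The scar with the insertion after position 545 and loss of position 576 had 0.252, 0.175 and 0.184 reads per 100 reads of its insertion alone in R1, R2 and R3 and 0.127, 0.157 and 0.129 in P1, P2 and P3, and loss of position 576 alone had 0.143 to 0.249 reads per 100 unscarred reads. Loss of position 574 behind the same insertion, kept in 3 fish, had 0.0780 to 0.155 reads per 100 reads of the insertion, beside 0.0801 to 0.155 per 100 unscarred reads. The ends of these ranges came from different fish. R3 lay farthest apart, with 0.155 and 0.0878 on 11 reads of the combined scar.

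The same downstream deletions recurred behind different first events. In P2 an 8-base insertion after position 544, a scar with 551181 reads on its own, was joined to loss of position 576 (968 reads), 574 (655 reads), 580 (360 reads) and 560 (321 reads). In R3 a 7-base insertion after position 543, with 77657 reads on its own, was joined to the same 4 positions with 134, 85, 36 and 53 reads. These examples were picked after their values had been seen, as was the limit at position 560, and no test is given for them.

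The comparison was extended to all entries by a ratio: the reads of the combined scar per read of one event alone, divided by the reads of the other event alone per unscarred read. A ratio near 1 means that the second event was as frequent beside the first as on unscarred transgene. It could be computed for 372 of 403 entries, and 134 of them (36%) lay between 0.5 and 2 while 178 (47.8%) exceeded 100. The entries between 0.5 and 2 carried 5.57% of the reads, and those above 100 carried 86.5%. Among entries with an event at or beyond position 560, 118 of 124 lay between 0.5 and 2 (median 1.05), whereas among the rest 16 of 248 did (median 2359). Where both single events were rare, only a high ratio let a scar reach 10 reads, and more reads of a scar raise its ratio. The number of entries above 100, their part of the reads and the median of 2359 therefore follow in part from the read minimum. Of entries of scars kept in more than 1 fish, 60 of 93 lay between 0.5 and 2, against 74 of 279 of those kept in 1 fish. Of the scars that reached 1% of a library, 0 of the 10 with a ratio lay in that range, and the lowest of them was 71.6. Scars chosen for a high share have many reads in the numerator of the ratio, so this contrast follows in part from the choice. What share of these strings arose during amplification, sequencing or alignment was not tested.

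The 91 scars with a downstream event reached low shares of single libraries but not always a small part of the class. They made up 25, 8 and 15 of the scars of R1, R2 and R3 and 33, 24 and 21 of those of P1, P2 and P3, and carried 1.96%, 41.8% and 13% of the deletion-insertion reads of the Cas9 RNA fish and 11.7%, 22.6% and 3.06% of those of the Cas9 protein fish. Their highest share of any library was 0.453%, 0.733% and 0.0751% in R1, R2 and R3 and 0.0304%, 0.0569% and 0.0111% in P1, P2 and P3, against 6.02%, 0.555%, 5.01%, 2.88%, 3.14% and 4.88% for the remaining scars of the same fish. In R2 alone the highest share of a downstream scar exceeded that of the remaining scars, and this was the leading scar with its insertion after position 564, whose ratio was 492. By scar, 20 of the 91 were kept in more than 1 fish, against 19 of the 254 others.

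A second description compared each scar with its single events directly. In 240 of 403 entries (59.6%) 1 of the events was a single base and the other event on its own was a scar with at least 10 times the reads in the same fish. Such entries numbered 63, 15 and 23 in R1, R2 and R3 and 78, 34 and 27 in P1, P2 and P3, and held 9.31%, 54% and 20.2% of the deletion-insertion reads of R1, R2 and R3 and 46.8%, 27.6% and 4.55% of those of P1, P2 and P3. They were 81 of the 97 entries of shared scars, against 159 of the 306 entries of scars kept in 1 fish.

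Of the 13 scars kept in 3 fish, 9 had an event at or beyond position 560, and none of the 9 exceeded 0.0376% of a library. The other 4 reached up to 0.632%, and the 2 with the highest shares are described here. Loss of position 541 with a gain of 2 bases after position 545 was read in all 26 libraries of P1, where its mean was 0.0587% and its highest libraries stood at 0.632% and 0.628%, whereas its highest library was at 0.0513% in R2 and 0.0312% in P2. In P1 it had 6750 reads, beside 1164 reads of its insertion alone and 7495 of its deletion alone. Loss of positions 537 to 541 with a gain of 1 base after position 545 reached 0.322% in library 12 of R1, against 0.106% in P1 and 0.0236% in P2. Its ratio was 249 in R1, 10.3 in P1 and 0.990 in P2.

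Injection of Cas9 RNA and of Cas9 protein was compared over the 6 fish with an exact two-sided permutation test, for which 3 fish against 3 allow no p below 0.10, so that no measure could pass 0.05. P-values were adjusted over the 6 measures compared. Deletion-insertion scars took 1.14% ± 1.03 of scarred reads with Cas9 RNA and 0.494% ± 0.165 with Cas9 protein (SD, n = 3 each), a difference of 0.646 percentage points (exact permutation p = 0.40, adjusted p = 0.70). The Cas9 RNA mean rested on R1: without it the difference was 0.0548 percentage points. Their number was 57 ± 48.1 per fish with Cas9 RNA and 77.3 ± 25.5 per fish with Cas9 protein, a difference of -20.3 (exact permutation p = 0.60, adjusted p = 0.70). It was -47.8 without R1, -3.33 without R2, -9.83 without R3, -8 without P1 and -33.5 without P3. Of all kept scars they were 6.79%, 4.63% and 6.06% in R1, R2 and R3 and 6.30%, 10.1% and 5.24% in P1, P2 and P3. The fish also differed in libraries, with 31, 13 and 14 against 26, 23 and 23, and in reads. What part of the difference in number came from these was not tested.

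Strings that kept the frame held 26.2% ± 28.7 of the deletion-insertion reads with Cas9 RNA and 11.5% ± 7.01 with Cas9 protein, a difference of 14.7 percentage points (exact permutation p = 0.70, adjusted p = 0.70). The values per fish were 10.2%, 9.10% and 59.3% in R1, R2 and R3 and 13.4%, 17.3% and 3.72% in P1, P2 and P3. The leading scar of R3, of unchanged length, held 47.2% of the reads of that fish, and without the leading scar of each fish the shares were 40.4%, 10.7% and 22.8% in R1, R2 and R3 and 18.3%, 34.5% and 19.1% in P1, P2 and P3. Without R3 the difference between the injections was -1.86 percentage points. Scars with the insertion first held 26.6% ± 17.7 of the reads with Cas9 RNA and 36.1% ± 28.7 with Cas9 protein, a difference of -9.56 percentage points (exact permutation p = 0.70, adjusted p = 0.70), which was 6.50 without P1.

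A deletion-insertion scar was found, at 10 reads or more, in 14.7% ± 2.99 of the libraries of its fish with Cas9 RNA and in 12.4% ± 2.71 with Cas9 protein (exact permutation p = 0.50, adjusted p = 0.70). The share of scars kept in another fish as well was 18.4% ± 8.57 with Cas9 RNA and 27.7% ± 4.88 with Cas9 protein, a difference of -9.35 percentage points (exact permutation p = 0.20, adjusted p = 0.70). None of the 6 differences passed 0.05. A shared scar counted in each fish that kept it, so the sharing values of the fish depend on one another. The p-value for sharing therefore does not hold strictly.

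Within each fish deletion-insertion scars were then compared with the scars with 2 deletions and with all other kept scars, using an exact two-sided sign-flip permutation test over the 6 fish, whose smallest possible p is 0.03125, with adjustment over 7 comparisons. The share of scars that were also kept in another fish was lower for deletion-insertion scars than for all other kept scars in every fish. It was 21.4%, 8.70% and 25% of deletion-insertion scars in R1, R2 and R3 against 34.3%, 66.5% and 61.5% of all other scars, and 24.5%, 25.3% and 33.3% in P1, P2 and P3 against 38.7%, 60.6% and 39.4%. The mean was 23% ± 8.07 for deletion-insertion scars and 50.2% ± 14.2 for all others. The difference of -27.1 percentage points was negative in 6 of 6 fish (exact permutation p = 0.03125, adjusted p = 0.109). It did not pass 0.05 after adjustment. Its size moved with the read minimum: the difference was -16.1 with 5 reads, -48.5 with 50 reads and -61 with 0.1% of a library's reads. A shared scar counted in each fish that kept it, so the sharing values of the fish depend on one another. The test takes fish as independent, so its p-values for sharing, here and against scars with 2 deletions, do not hold strictly.

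Against scars with 2 deletions the share kept in another fish was lower in 5 of 6 fish, the exception being P3 with 33.3% of deletion-insertion scars and 32.3% of scars with 2 deletions. The means were 23% ± 8.07 and 39.3% ± 10.2, a difference of -16.2 percentage points (exact permutation p = 0.0625, adjusted p = 0.109). Over all fish, 11.3% of deletion-insertion scars, 16.7% of scars with 2 deletions and 19.8% of all other kept scars were kept in more than 1 fish, and 0, 14 and 121 scars of these classes were kept in all 6. The median number of reads per scar differed between classes too. In R1, R2 and R3 it was 57.5, 46 and 56.5 for deletion-insertion scars and 77.5, 74 and 104 for all other scars, and in P1, P2 and P3 it was 37.5, 94 and 44 against 70.5, 74 and 86. The part of reads per scar in the difference in sharing was not tested.

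At 10 reads or more, a deletion-insertion scar was found in 13.6% ± 2.84 of the libraries of its fish, against 21.7% ± 4.45 for all other kept scars, and was lower in 6 of 6 fish by a mean of -8.13 percentage points (exact permutation p = 0.03125, adjusted p = 0.109). Against scars with 2 deletions, found in 14.9% of libraries, the difference was -1.38 percentage points, with deletion-insertion scars lower in 4 of 6 fish (exact permutation p = 0.344, adjusted p = 0.401). Since 10 reads were needed in a library, this measure depends on the reads per scar given above. Their part in these differences was not tested.

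Reads that kept the frame made up 18.8% of deletion-insertion reads on the mean over fish, against 53.5% of the reads of all other kept scars, a difference of -34.6 percentage points with deletion-insertion scars lower in 5 of 6 fish (exact permutation p = 0.0625, adjusted p = 0.109). The exception was R3, with 59.3% and 54.4%. Against scars with 2 deletions, with 29.3%, the difference was -10.4 percentage points (exact permutation p = 0.531, adjusted p = 0.531). Counted once per scar, the 3 classes had shares of 35.9%, 37.6% and 34.7%, and in R1 and P3 the out-of-frame leading scars held 74.8% and 80.5% of the deletion-insertion reads. The median distance between the events, averaged over fish, was 13.4 bases for deletion-insertion scars and 12 bases for scars with 2 deletions, a difference of 1.42 bases (exact permutation p = 0.25, adjusted p = 0.35), so no difference in spacing was resolved.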

How the data were processed

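Scar counts per barcode of 6 fish were analysed. The deposited tables give, per the labels and the study's methods, raw read counts for each alignment string, made by the authors by mapping GFP amplicon reads with BWA 0.7.16a (submitters' processing notes), without molecular identifiers. The string of 720 aligned bases was taken as unscarred. Libraries of at least 1000 reads and scars of at least 10 reads in 1 library were kept. Shares are of all scarred reads of a library. Columns of repeat amplifications were not summed. The members and lists were chosen with earlier results of these data known. Scars named are the highest by mean share in each fish, the one in most libraries, those kept in most fish, the extremes of length and distance and the most read pair of lengths found in both orders, and others named in the text were chosen after their values were seen. Fish means were compared by exact permutation, written with NumPy 2.4.6 under Python 3.11.15, with Benjamini-Hochberg adjustment. SciPy 1.17.1 gave the Wilson intervals and Spearman's rho, and tables were read with pandas 2.3.3. A planned measure, the share of scars whose events touch, was 0 in all fish and was not tested. In simulated data without sequencing or alignment errors, 360 of 360 scars planted above the read minimum were recovered. This checks only the reading of the strings, not detection in real libraries. Other read minimums, library minimums, subsets of members, poolings and fish left out were tried.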

Additional observations from a re-analysis of the deposited data

How the results depend on the processing

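Of 182 alternative values, 173 did not reverse direction. The difference between the injections in sharing, which was 0 with a minimum of 0.1% of a library's reads, is counted among the 173. In 131 of the 182 values the number of fish allows no p under 0.05, so a missed threshold there says nothing of stability. These 131 are the comparisons of the injections and those within fish with 1 fish left out. Of the 51 others, 45 kept their direction and their side of 0.05. The difference between Cas9 RNA and Cas9 protein fish in the number of scars was 2 with a minimum of 0.1% of a library's reads, which left 16, 1 and 3 scars in R1, R2 and R3 and 7, 4 and 3 in P1, P2 and P3 and no shared scar. The in-frame difference was -0.472 as a mean over libraries and -1.14 with each scar counted once, and ran from -1.86 to 23.2 with 1 fish left out. The insertion-first difference was 4.12 without scars of unchanged length and 5.94 with each scar counted once, and ran from -21.1 to 6.50 with 1 fish left out. Counting each scar once was added after the data were seen.

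Against scars with 2 deletions, the distance difference was -2.58 without scars whose single-base event accompanies a common scar, and the in-frame difference ran from -20.6 to 3.31 with 1 fish left out (3.31 without R2). Without scars of unchanged length, 5 differences passed 0.05 (exact permutation p = 0.03125, adjusted p = 0.0437): in-frame reads by -24.4 and sharing by -16.7 against scars with 2 deletions, and in-frame reads by -48.6, libraries by -8.55 and sharing by -27.6 against all others. These scars are in frame by construction and were removed from 1 side only, so the in-frame differences were lowered in advance and carry no weight. Libraries and sharing against all others had the same p of 0.03125 with these scars kept, and passed here only through the adjustment, which moved with the lower p-values of the other 3 comparisons. Over all alternatives to these 5 differences the adjusted p ran from 0.0437 to 1. With 5 fish no p below 0.0625 is possible. The p-values for sharing again take the fish as independent, which they are not for this measure.

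Replicate numbers do not mark shared parents in the labels, and r between same-numbered fish was 0.00201, -0.00154 and 0.00165. Most scars were kept in 1 fish, so a low r could arise with or without a shared parent or batch. These values therefore do not decide whether the number marks one. With the number as a replicate block, the difference in share stayed at 0.646 (exact paired permutation p = 0.75), and the 5 other measures also kept their value (exact p from 0.25 to 1.0, none below the 0.25 that 3 pairs allow). Depth limits the number of scars seen per library, since the minimum is a fixed number of reads.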

Other observations

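In barcodes of under 1000 reads, which were left out above, deletion-insertion scars had 0, 0 and 2 of 83, 109 and 781 scarred reads in R1, R2 and R3 and 1, 1 and 1 of 630, 445 and 373 in P1, P2 and P3. With strings below the read minimum counted as well, the reads were 1, 0 and 2 in R1, R2 and R3 and 14, 3 and 3 in P1, P2 and P3.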
